A study of Gossypium hirsutum with 89 samples.

Results

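The transcripts described here are 149 probe sets of the Affymetrix Cotton Genome array whose level, averaged over 5 genotypes of upland cotton (Gossypium hirsutum), was higher at 9 and 12 days post anthesis (dpa) than at both 6 and 25 dpa. They were chosen by a score P, the mean log2 level at 9 and 12 dpa minus the larger of the levels at 6 and 25 dpa. Of the 24132 probe sets in the table, 11048 had a highest mean log2 level of at least 8 and could be ranked. The 150 highest were taken, and 1 of them, Aux6 at rank 8, was left out by name. A level here is log2 of the signal plus 4.4, and a difference of 1 on this scale is a doubling. P ranged from 2.94 down to 0.53 with a median of 0.70, and 23 members reached 1. These values chose the members and are given as a description.

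The arrays were hybridised with RNA of JKC 725 and JKC 777, which the labels class as superior in fibre quality, and of JKC 703, JKC 783 and JKC 737, classed as inferior. All plants were field-grown, and the ages of the samples were 0, 6, 9, 12, 19 and 25 dpa. Each of the 30 groups of genotype and day held 3 biological replicates, except that JKC 783 had 2 at 25 dpa, which gave 89 arrays. The ovule was taken whole at 0 dpa and fibre alone from 6 dpa on, so any difference from 0 dpa is also one of tissue, and in these bulk samples fewer cells of a type and less RNA per cell cannot be told apart. The mean correlation of an array with its replicates ran from 0.932 to 0.989, with a median of 0.974. The lowest value belonged to replicate 2 of JKC 725 at 12 dpa, so results that rest on that group are given without it where they move. Against the fibre label, the 6 fibre marker probe sets (E6, H6L, LTP3 with 2, EXPA1 and KCS12) were all higher on the mean than in the ovule in every genotype at 6 and 9 dpa, 5 were at 12 and 19 dpa, and 4 at 25 dpa. The exceptions were the LTP3 probe set GhiAffx.15712.3.S1_x_at, at log2 levels of 8.89 in the ovule and 7.17 at 19 dpa in JKC 725, and at 25 dpa also EXPA1, at 8.74 and 8.32 in JKC 703.

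A cotton fibre is a single epidermal cell of the seed coat that starts to grow around the day of flowering. It elongates first, while expansins loosen its thin primary wall and enzymes of pectin and hemicellulose synthesis supply new matrix, and it later fills this shell with cellulose of the secondary wall. Between them lies a transition in which elongation slows and a winding layer of cellulose is laid down.

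The label of the set, a peak at 9 to 12 dpa, held for the average of the genotypes and for few genotypes one by one. On the average, 121 members were highest at 12 dpa, 16 at 9 dpa, 8 in the ovule at 0 dpa and 4 at 19 dpa. Within JKC 725, 82 members had their highest fibre level at 9 dpa, 45 at 12 dpa, 21 at 6 dpa and 1 at 19 dpa. JKC 703 was similar, with 53 at 9 dpa, 68 at 12 dpa and 28 at 6 dpa. In the other 3 genotypes the commonest day was 19 dpa, with 96 members in JKC 777, 87 for JKC 783 and 94 for JKC 737. At 9 or 12 dpa these 3 genotypes had their highest fibre level for only 45, 42 and 42 members. The pattern shared by most members, 83 of the 149, was a highest fibre day of 6 to 12 dpa in JKC 725 and JKC 703 and of 19 or 25 dpa in JKC 777, JKC 783 and JKC 737. Highest days were not counted over all ranked probe sets, so these counts do not show what is particular to the members. In 27 members all 5 genotypes were highest at 6 to 12 dpa, and in 11 of these at 9 or 12 dpa. Only 18 members had a score above 0 in each of the 5 genotypes on its own. The set is therefore described below by its rule, as the members with the highest average score.

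**Figure D1:**
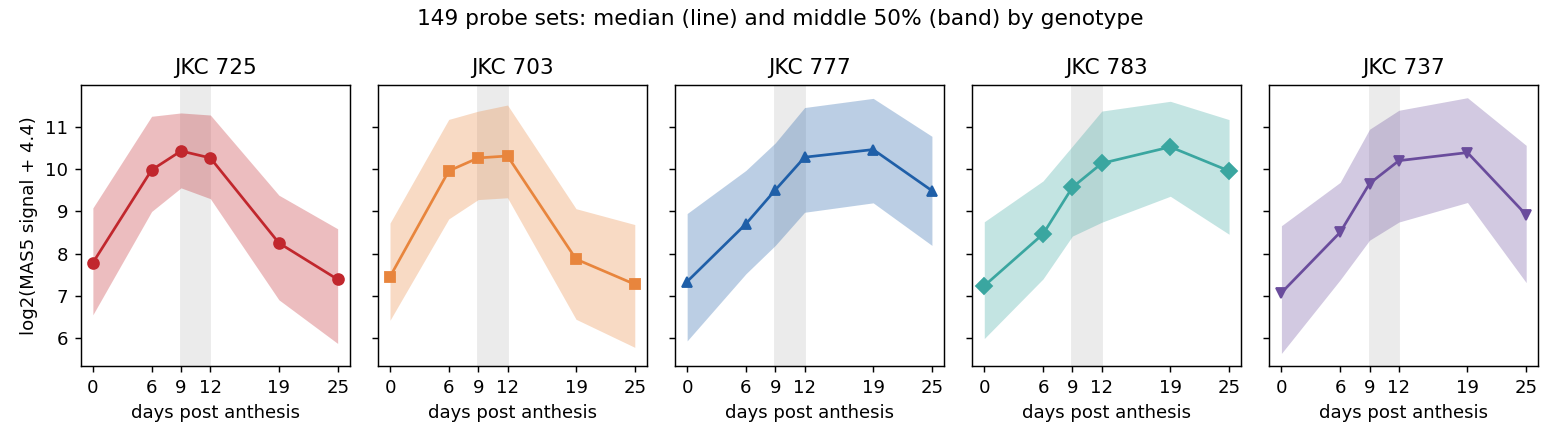
Median (line) and middle 50% (band) of the log2(MAS5 signal + 4.4) of the 149 probe sets against days post anthesis, in a panel for each genotype; the grey strip marks 9 to 12 dpa. The medians of JKC 725 and JKC 703 are highest at 9 and 12 dpa and drop to 8.25 and 7.87 at 19 dpa, while those of JKC 777, JKC 783 and JKC 737 are at 10.46, 10.53 and 10.39 on that day.

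The median level of the members on each array shows how far replicates agreed. At 6 dpa the 3 arrays of JKC 725 were at 9.91, 10.06 and 10.26 and those of JKC 703 at 9.78, 9.89 and 10.21. The arrays of JKC 777 at that age were at 8.87, 8.60 and 8.62, those of JKC 783 at 8.58, 8.26 and 8.58 and those of JKC 737 at 8.64, 8.47 and 8.47. The former 2 genotypes did not overlap with the latter 3. At 12 dpa all 5 genotypes met, with arrays between 10.07 and 10.47. At 19 dpa the arrays of JKC 725 were at 8.24, 8.18 and 8.29 and those of JKC 703 at 7.97, 7.94 and 7.55. Those of JKC 777 were at 10.63, 10.62 and 10.34, those of JKC 783 at 10.38, 10.73 and 10.55 and those of JKC 737 at 10.27, 10.43 and 10.52. The gap at 19 dpa was thus several times the spread between replicates and had the opposite sign to that at 6 dpa.

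**Figure D2:**
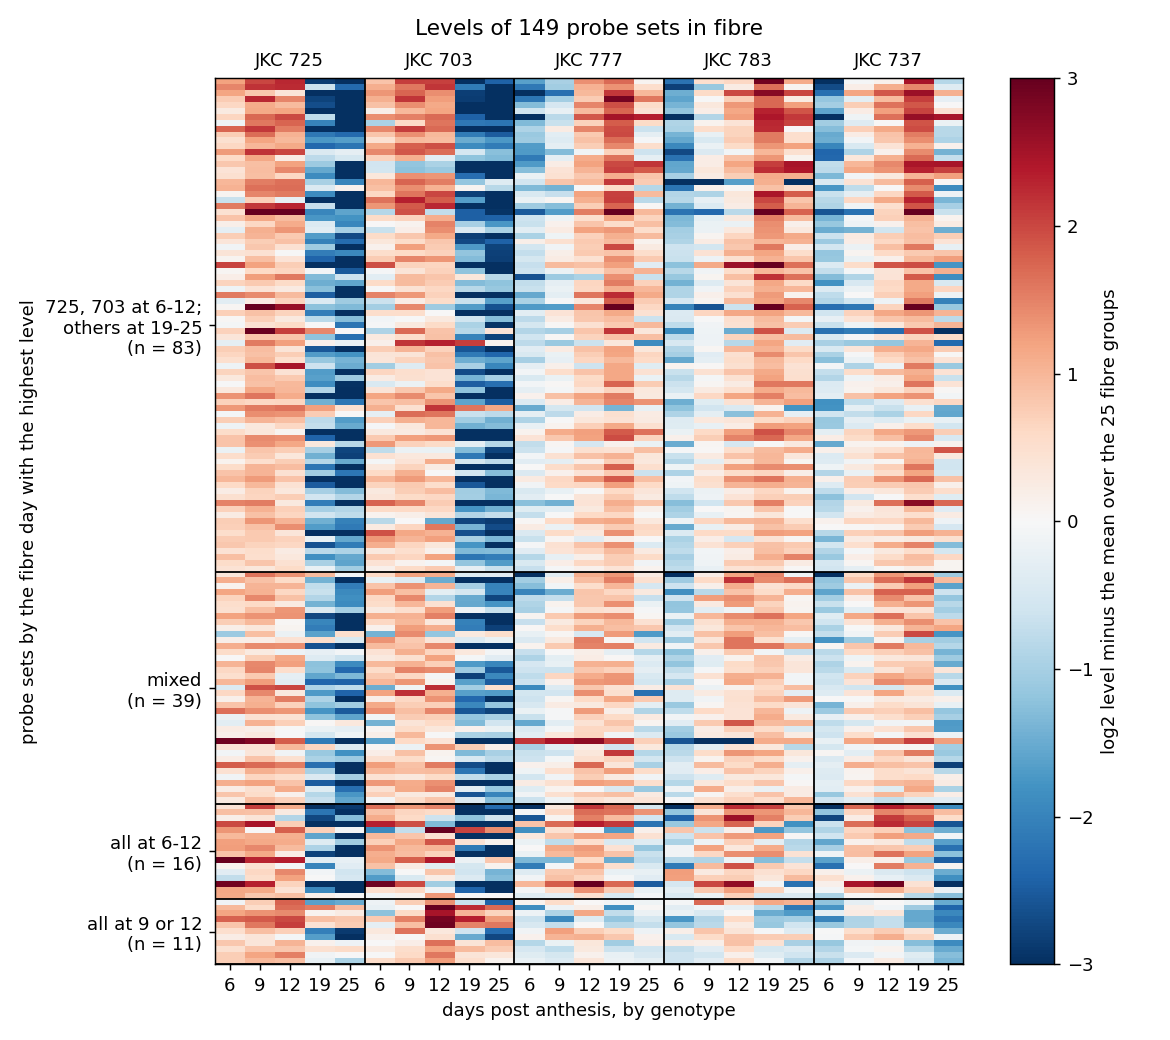
Level of each of the 149 probe sets (rows) in the 25 fibre groups (columns, 6 to 25 dpa within each genotype), as log2 level minus the row's mean; red is higher and blue lower, with the scale held at 3 in each direction. Rows are grouped by the day of the highest fibre level, and the upper block of 83 shows red at 6 to 12 dpa in JKC 725 and JKC 703 and at 19 dpa in the other 3 genotypes.

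Gene names could be given to 13 members, which stand for 12 genes, from the array annotation, in which 697 probe sets have 1 gene. Of these, 7 probe sets of 6 genes carry a readable name and the rest only a locus number. The other 136 members are unnamed and are called by their probe set. Those that end in s_at or x_at may also hybridise with other genes or subgenome copies, and there were 69 and 10 such members. By the first parts of their identifiers the 149 members came from 147 transcript clusters, with 2 members each in Ghi.7210 and Ghi.4013.

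The highest score, 2.94, belonged to the unnamed Ghi.3730.1.A1_s_at. In JKC 725 its signal was 8.24, 8.39 and 8.77 in the ovule, 267, 456 and 653 at 6 dpa, 1583, 1084 and 1514 at 9 dpa, 672, 1043 and 508 at 12 dpa, and 40.001, 39.7 and 29.8 at 19 dpa. In JKC 737 it was 36.7, 38.8 and 26.9 at 6 dpa, 1095, 967 and 1181 at 9 dpa, 1945, 1580 and 1610 at 12 dpa, 1218, 1482 and 1707 at 19 dpa and 54.5, 66.2 and 168 at 25 dpa. The transcript was thus up by 6 dpa and nearly gone by 19 dpa in JKC 725, and low at 6 dpa and still high at 19 dpa in JKC 737. The other genotypes fell on the same 2 sides, with 929, 941 and 1252 at 6 dpa in JKC 703 against 11.2, 8.01 and 12.9 for JKC 777 and 54.5, 17.4 and 26.4 for JKC 783. The change from 12 to 19 dpa was -4.14 for JKC 725, -4.70 for JKC 703, -0.41 for JKC 777, -0.18 for JKC 783 and -0.23 for JKC 737, and limma's F test called the difference among genotypes (range 4.51, adjusted p = 9.22e-13). Its score within a genotype was highest in JKC 737, at 3.93, and below 0 in JKC 703, at -0.25.

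Among wall genes, EXPA3D, an alpha-expansin that loosens the growing wall, had the second highest score (1.97, Ghi.249.1.A1_at). In JKC 725 its signal was 1462, 1279 and 1672 at 6 dpa, 3357, 3440 and 2409 at 12 dpa and 181, 46.4 and 70.5 at 19 dpa. In JKC 703 it was 1103, 1047 and 1324 at 6 dpa, 2623, 2415 and 2896 at 12 dpa and 33.8, 48.9 and 51.1 at 19 dpa. Both genotypes were thus far lower at 19 than at 12 dpa. In JKC 783 the signal was 155, 114 and 136 at 6 dpa, 1363, 631 and 1096 at 12 dpa and 5302, 5029 and 4074 at 19 dpa. In JKC 737 it was 53.8, 52.7 and 128 at 6 dpa, 917, 520.0 and 679 at 12 dpa and 3330, 3024 and 4287 at 19 dpa. The arrays of the groups did not overlap, and 19 dpa was the highest day in both. JKC 777 was between, with 1521, 1853 and 1556 at 12 dpa and 2011, 2664 and 1619 at 19 dpa. The step from 12 to 19 dpa was -5.09 for JKC 725, -5.77 for JKC 703, 0.33 for JKC 777, 2.28 for JKC 783 and 2.35 for JKC 737 on the log2 scale. This range of 8.12 was called by limma's F test among genotypes (adjusted p = 6.02e-24).

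A second probe set of EXPA3D, GhiAffx.40054.1.S1_at, was also a member, with a score of 0.80. Its log2 level in JKC 725 was 10.62 in the ovule and 10.70 at 6 dpa, and in JKC 703 it was 11.13 and 10.61. The level of Ghi.249.1.A1_at went from 6.74 to 10.52 and from 6.98 to 10.18 over the same days. At 19 dpa the signal of GhiAffx.40054.1.S1_at was 9.88, 22.1 and 24.5 for JKC 725, and 2737, 4104 and 3829 for JKC 783. The 2 probe sets of this gene thus differed in their change from the ovule to 6 dpa in these genotypes, and both were low at 19 dpa in JKC 725. The range of the 12 to 19 dpa step among genotypes was 5.78 for the second (limma's F test, adjusted p = 3.45e-15). That of its peak height, 1.04, was not called (adjusted p = 0.221).

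The peroxidase gene pox (Ghi.8136.1.S1_s_at, score 1.87) encodes an enzyme of a family that uses hydrogen peroxide in wall cross-linking and loosening. Its signal at 6 dpa was 3787, 5525 and 5785 for JKC 725 and 3477, 3383 and 4710 for JKC 703, against 709, 314 and 279 for JKC 777, 256, 154 and 408 for JKC 783 and 267, 169 and 443 for JKC 737. At 19 dpa it was 1398, 1043 and 1014 for JKC 725 and 481, 425 and 335 for JKC 703, against 5348, 5057 and 3407 for JKC 777, 4684, 6634 and 5790 for JKC 783 and 3331, 5736 and 6075 for JKC 737. The same genotypes stood on opposite sides on the 2 days, with no overlap on either. The step from 12 to 19 dpa was -2.88 and -4.25 for JKC 725 and JKC 703 and 0.29, 1.43 and 0.36 for JKC 777, JKC 783 and JKC 737 (range 5.67, limma's F test, adjusted p = 5.26e-18).

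UGD2 (Ghi.8627.1.S1_s_at) encodes UDP-glucose dehydrogenase, which makes UDP-glucuronic acid, a precursor of pectin and hemicellulose. It was 1 of the 11 members highest at 9 or 12 dpa in every genotype. At 12 dpa its signal was 756, 714 and 978 for JKC 725, 1132, 1121 and 1245 for JKC 703, 1672, 1932 and 1694 for JKC 777, 1681, 1530 and 1379 for JKC 783 and 1809, 1713 and 1853 for JKC 737. At 19 dpa it was 174, 410 and 253 for JKC 725 and 291, 341 and 243 for JKC 703, against 1425, 1666 and 1327 for JKC 777, 1328, 1468 and 1487 for JKC 783 and 1116, 1379 and 1563 for JKC 737. The transcript was lower at 19 than at 12 dpa in all 5 genotypes on the mean, with steps of -1.61 and -1.99 for JKC 725 and JKC 703, and of -0.26, -0.10 and -0.42 for JKC 777, JKC 783 and JKC 737. Limma's F test called the difference in this step (range 1.90, adjusted p = 1.78e-08) and in peak height (range 1.12, adjusted p = 4.13e-05). The latter range was 0.99, under the minimum, without replicate 1 of JKC 783 at 25 dpa.

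FLA14 (Ghi.9544.4.S1_s_at) encodes a fasciclin-like arabinogalactan protein, a glycoprotein of the cell surface. At 6 dpa its signal was 745, 817 and 682 for JKC 725 and 699, 666 and 677 for JKC 703, and at 19 dpa 136, 56.9 and 155 and 89.4, 123 and 52.5. In JKC 737 it went the other way, from 166, 150.4 and 238 at 6 dpa to 800.3, 715 and 743 at 19 dpa. The step from 12 to 19 dpa ranged over 4.27 among genotypes (limma's F test, adjusted p = 7.75e-15), from -3.41 for JKC 703 to 0.86 for JKC 783.

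Aux2 (GhiAffx.34525.1.S1_s_at) kept an early maximum in each genotype, at 6 to 12 dpa. JKC 703 was highest at 6 dpa, with a signal of 2956, 2934 and 4112, whereas JKC 783 was highest at 12 dpa, with 4336, 8888 and 7956, and JKC 737 likewise, with 5554, 5256 and 4712. In JKC 725 the 3 arrays at 12 dpa were at 1118, 4174 and 1066, and the high one is the array with the lowest correlation to its replicates. Peak height ranged over 2.82 among genotypes (limma's F test, adjusted p = 6.07e-12). The range of the 12 to 19 dpa step was 1.70 (adjusted p = 0.00646), and without that array it was 1.06 and was not called (adjusted p = 0.0822). MFP (GhiAffx.43326.1.S1_a_at) was weaker, with a signal of 672, 555 and 671 at 9 dpa in JKC 725 and 318, 207 and 249 in JKC 777. Its 12 to 19 dpa step ranged over 1.5 (limma's F test, adjusted p = 0.000413). Its range of peak height, 1.00, lay on the minimum and fell under it in 11 of the 89 fits that left out 1 array.

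**Figure D3:**
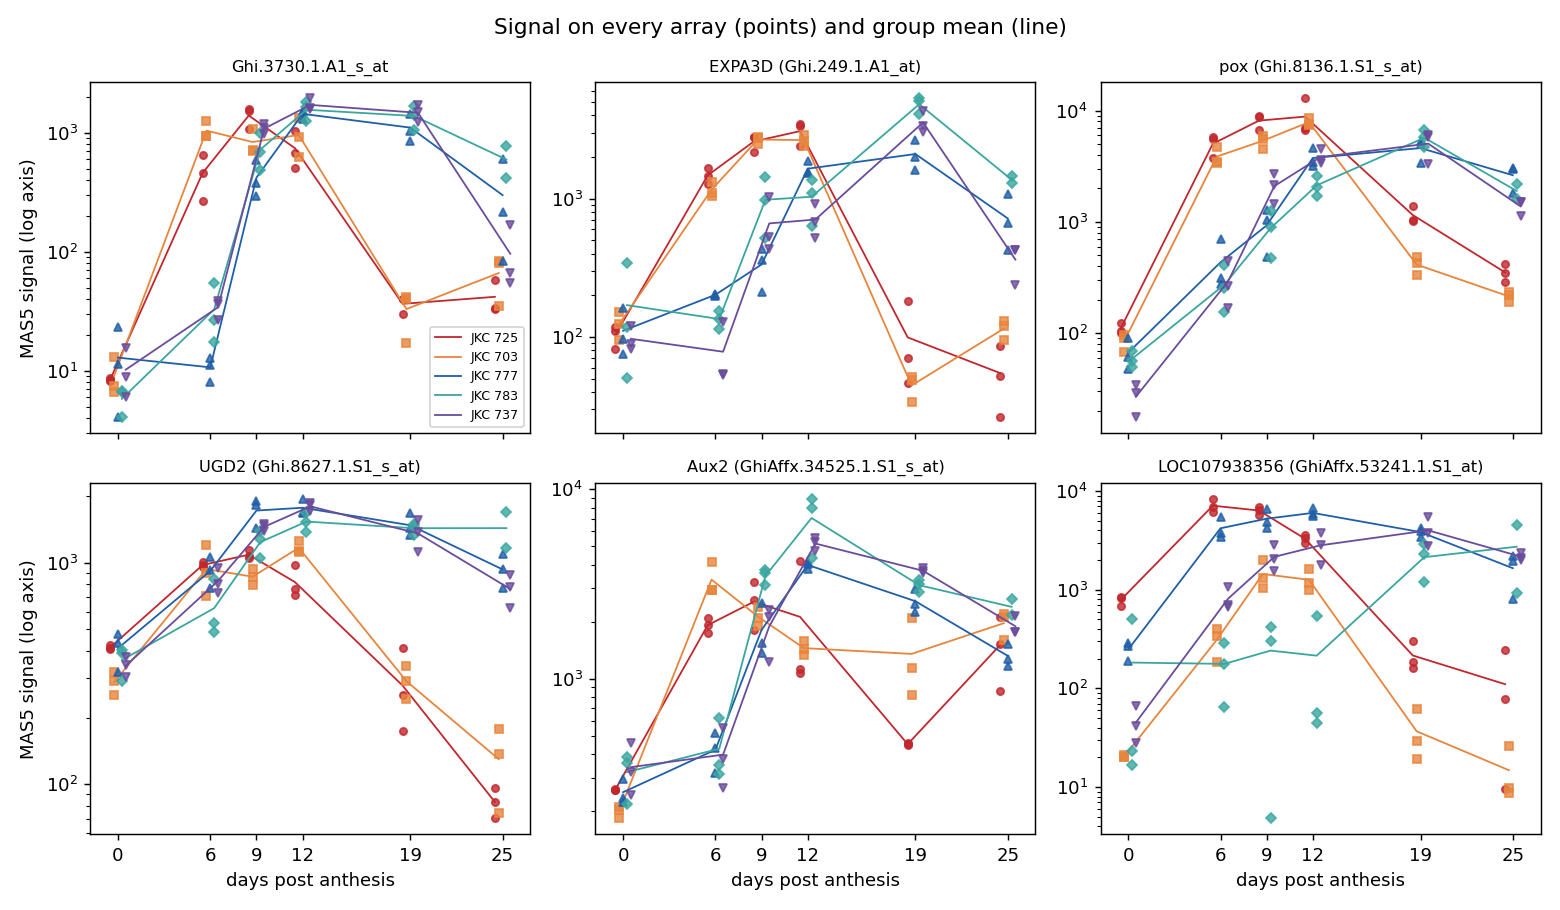
MAS5 signal (log axis) against days post anthesis of 6 members, with a point for every array, a line through the mean of each group and points of a day set slightly apart by genotype. EXPA3D, pox and Ghi.3730.1.A1_s_at are high in JKC 725 and JKC 703 and low in the others at 6 dpa, and the reverse at 19 dpa. For UGD2 the genotypes separate at 12, 19 and 25 dpa.

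Of the 6 members known only by a locus number, 4 were called for the 12 to 19 dpa step among genotypes by limma's F test. LOC107938356 (GhiAffx.53241.1.S1_at) had a range of 9.15 (adjusted p = 1.17e-09). Its signal at 9 dpa was 6421, 5762 and 6914 for JKC 725, 1310, 1038 and 1987 for JKC 703, 6668, 4918 and 4185 for JKC 777, 4.83, 418 and 303 for JKC 783 and 1551, 2857 and 2068 for JKC 737. JKC 783 was below every other group on that day and its replicates differed widely, also at 12 dpa with 545, 44.4 and 55.9. The other called loci were LOC107938326 (GhiAffx.1112.1.S1_s_at, range 4.33), LOC107913997 (Ghi.2837.1.S1_s_at, range 3.15) and LOC107928594 (Ghi.6324.1.A1_x_at, range 2.06). LOC107946138 (Ghi.3494.2.S1_at, range 0.57, limma adjusted p = 0.988) and LOC107907037 (Ghi.5136.1.S1_s_at, range 0.88, limma adjusted p = 0.441) were not called and were both highest at 9 or 12 dpa in every genotype. The replicates of LOC107946138 differed widely, as at 12 dpa in JKC 783 with 2716, 160.0 and 899.

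The other unnamed members among the 10 highest scores were 7 probe sets, of which Ghi.5889.1.A1_x_at is described with the 9 to 12 dpa step. GhiAffx.46348.1.S1_at (score 1.74) had signals at 6 dpa of 1496, 2114 and 2995 for JKC 725 and 1281, 3145 and 3039 for JKC 703, against 165, 71.4 and 82.1 for JKC 777, 226, 422 and 383 for JKC 783 and 234, 350.2 and 83.0 for JKC 737. At 19 dpa it was at 110.2, 78.7 and 114 for JKC 725 and 118, 144 and 122 for JKC 703, against 4855, 5036 and 2700.3 for JKC 777, 5924, 6956 and 5675 for JKC 783 and 5078, 5472 and 6015 for JKC 737. The former 2 genotypes were above the latter 3 on the first day and below them on the second, with no overlap. Its step from 12 to 19 dpa was -3.53, -4.21, 1.14, 0.74 and 0.71 for JKC 725, JKC 703, JKC 777, JKC 783 and JKC 737. In the same order, the step was -4.24, -4.11, 2.11, 0.99 and 1.12 for Gra.2885.1.S1_s_at (score 1.44), and -3.61, -4.40, 0.49, 0.40 and 0.23 for GhiAffx.2605.1.S1_at (score 1.40). For Ghi.8282.1.S1_at (score 1.38) it was -4.46, -4.47, 0.80, 1.14 and 0.79. All 4 were lower on the mean at 19 dpa in JKC 725 and JKC 703 and higher in the other 3. Ghi.9271.5.A1_at (score 1.21) had steps of -3.76, -3.75, 1.13, 1.86 and 1.88, and Ghi.453.1.S1_at (score 1.21) of -4.93, -5.57, 0.50, 1.55 and 0.83. The 6 ranges among genotypes, from 4.88 for GhiAffx.2605.1.S1_at to 7.12 for Ghi.453.1.S1_at, were all called by limma's F test, with adjusted p from 4.27e-24 for Ghi.8282.1.S1_at to 2.14e-11 for GhiAffx.46348.1.S1_at.

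The change from 12 to 19 dpa used 1 day outside the score, 19 dpa, and 1 day of the score, 12 dpa. Since the members were chosen for a high average level at 9 and 12 dpa, a fall from 12 dpa is partly built in, and the steps within a genotype are given as a description. The question of a difference in this step was asked after the values had been seen. Among all 18660 probe sets tested by limma's F test, 42.5% were called as differing in it among genotypes (at an adjusted p below 0.05, with the genotypes at least 1 apart), and 129 of the 149 members, 86.6%, were. The median range was 3.27 for the members and 1.2 for all tested probe sets. Without replicate 2 of JKC 725 at 12 dpa 126 members were called. From 12 to 19 dpa 148 members were lower on the mean in JKC 725 and 148 in JKC 703, with median changes of -2.0 and -2.27. In JKC 777, JKC 783 and JKC 737 it was 49, 45 and 43, with median changes of 0.30, 0.34 and 0.28. Of the 11048 ranked probe sets 52.3% and 49.4% were lower in JKC 725 and JKC 703, and 58.4%, 55.9% and 57.2% for the other 3. The medians of the ranked probe sets lay between -0.10 and 0.01 in the 5 genotypes. The step was -1 or lower for 127 members in JKC 725 and 123 in JKC 703, against 10, 13 and 7 in JKC 777, JKC 783 and JKC 737. Of the ranked probe sets 12.1%, 13.7%, 7.28%, 6.40% and 6.06% had such a step in these genotypes, in the same order, so that the 10, 13 and 7 members are near the background. In 79 members, 53.0%, the mean was lower in both JKC 725 and JKC 703 and higher in all 3 others, a pattern of 9.29% of the ranked probe sets.

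**Figure D4:**
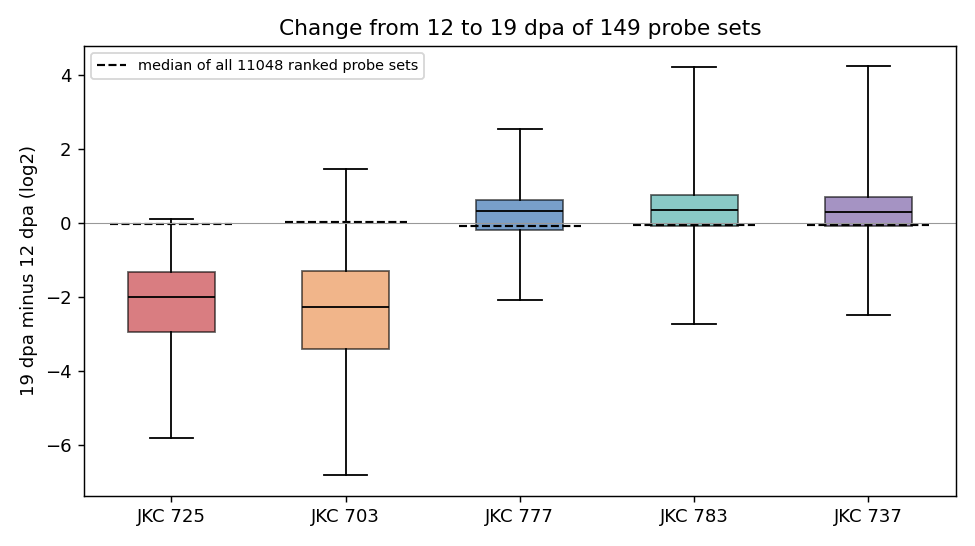
Change from 12 to 19 dpa (log2) of the 149 members in each genotype; boxes span the middle 50% with the median as a line, whiskers reach the extremes, and dashed lines mark the median of all 11048 ranked probe sets. The boxes of JKC 725 and JKC 703 lie below 0, with medians of -2.0 and -2.27, and those of the other genotypes have medians of 0.28 to 0.34.

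The same step was compared between each of the 10 pairs of genotypes with limma, adjusted over all pairs and probe sets together. Against JKC 777, JKC 725 differed in 121 members, where 20.3% of all tested probe sets were called, and the step of JKC 725 was the lower in 119 (8.37% of all tested). Against JKC 783 it was 118 (17.2%), with JKC 725 lower in all 118 (8.23%). Against JKC 737 it was 121 (16.6%), with JKC 725 lower in all 121 (8.34%). JKC 703 was on the same side. It differed from JKC 777 in 113 members (29.4%) and was lower in 113 (9.88%), from JKC 783 in 113 (26.8%) and lower in 113 (10.4%), and from JKC 737 in 117 (23%) and lower in 117 (9.17%). JKC 725 and JKC 703 themselves differed in 31 members, where 5.87% of all tested probe sets were called, and JKC 725 was the lower in 8 (3.22%). Leaving out replicate 3 of JKC 703 at 19 dpa reduced the 31 to 17. Within the other 3 genotypes the calls were few. JKC 777 and JKC 783 differed in 12 members (6.54% of all tested), with JKC 777 lower in 8 (3.9%). JKC 777 and JKC 737 differed in 4 (3.41%), with JKC 777 lower in 4 (2.56%), and JKC 783 and JKC 737 in 4 (2.92%), with JKC 783 lower in 3 (1.9%). These shares lie near the background. The 2 genotypes classed as superior, JKC 725 and JKC 777, were thus on different sides of most of these calls.

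On single days, limma's F test called 121 members as differing among genotypes at 6 dpa, where 28.1% of all tested probe sets were called, and 85 at 9 dpa (25.8% of all tested) and 80 at 12 dpa (30.4%). The counts were highest late, with 140 members at 19 dpa (49.3% of all tested) and 145 at 25 dpa (49.6%). In the ovule at 0 dpa it was 53 members (28.6% of all tested), a share of 35.6%. The median range over genotypes was 1.77 at 6 dpa, 1.25 at 9 dpa, 1.11 at 12 dpa and 3.09 at 19 dpa. For all tested probe sets it was 0.82, 0.78, 0.82 and 1.09 on these days. Over the members the genotypes were thus closest at 12 dpa among the fibre days, the day on which the average of most members was highest. Since the members were chosen for a high average at 9 and 12 dpa, this may be partly built in. The interaction of genotype and fibre day was called for 142 members and for 79.5% of all tested probe sets.

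**Figure D5:**
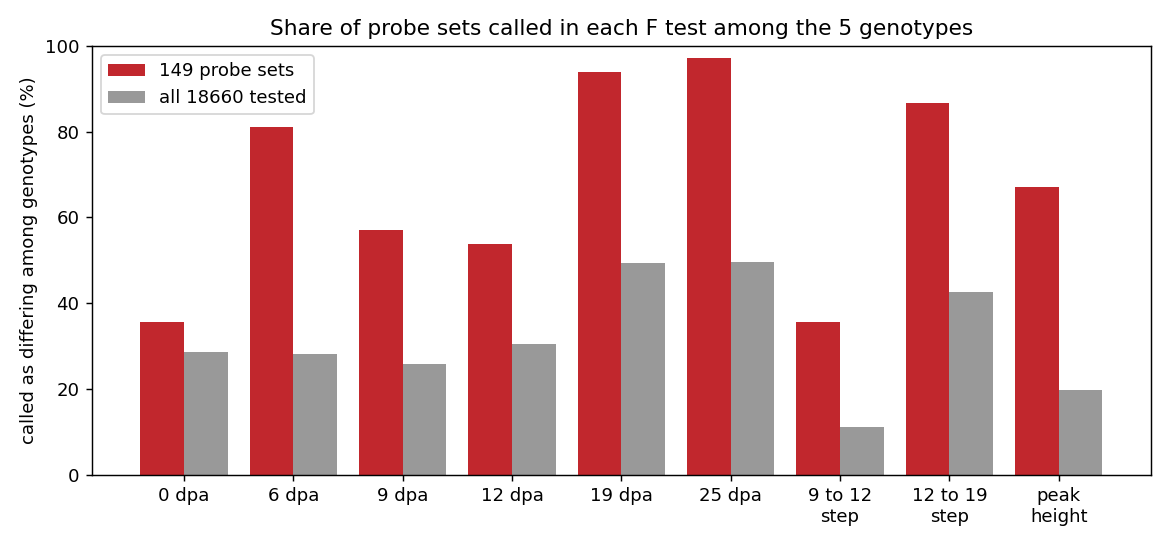
Percent of the 149 members (red) and of all 18660 tested probe sets (grey) called by limma's F test as differing among the 5 genotypes, on each day and for the 9 to 12 dpa step, the 12 to 19 dpa step and the peak height. The members' share is 81.2% at 6 dpa, 53.7% at 12 dpa and 97.3% at 25 dpa.

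At 6 dpa markers of other cells differed between the genotypes too, but not all in the same direction. CPA-FAS-2 (Ghi.8159.1.S1_s_at), a cyclopropane fatty acid synthase gene high in the ovule, had signals of 131, 61.0 and 46.6 for JKC 725 and 60.04, 58.3 and 50.7 for JKC 703. It was at 806, 1162 and 936 for JKC 777, 1099, 1216 and 765 for JKC 783 and 906, 1238 and 576 for JKC 737. Lea5-D of the same list had the opposite order, with 1279 to 3014 for JKC 725 and 2337 to 3173 for JKC 703. It was at 394 to 477 for JKC 777, 276 to 1065 for JKC 783 and 319 to 661 for JKC 737. Lea14-A overlapped between these groups and was higher on the mean at 6 dpa than in the ovule in every genotype. The sum of the list is therefore not a measure of ovule tissue alone. The summed signal of the 3 ovule, seed and embryo markers did not follow the order of CPA-FAS-2. It was 2027 to 3740 for JKC 725 and 2780 to 3784 for JKC 703. For JKC 777, JKC 783 and JKC 737 it was 1835 to 2216, 2314 to 3466 and 1460 to 3035. The histone gene HIS2B (Ghi.5205.1.A1_x_at), a marker of dividing cells, was at 4439 to 5482 for JKC 725, 4108 to 5707 for JKC 703, 7971 to 9453 for JKC 777, 7932 to 9112 for JKC 783 and 7279 to 11066 for JKC 737. At 19 dpa the sum of the ovule, seed and embryo markers was 6088 to 8573 for JKC 725 and 10201 to 12710 for JKC 703, against 1913 to 4185 for JKC 777, 1543 to 3027 for JKC 783 and 5126 to 7425 for JKC 737. In JKC 725, JKC 703 and JKC 737 most of this sum was Lea5-D, and CPA-FAS-2 was then at 15.1 to 27.8 for JKC 703 and 33.0 to 568 for JKC 725. The sum in the ovule was 4433 to 4736 for JKC 725, 4562 to 5720 for JKC 703 and 3042 to 4883 for JKC 737. In these genotypes it was thus below the sum in fibre at 19 dpa. For JKC 777 and JKC 783 the ovule sum was 5260 to 5978 and 6664 to 7257, above that at 19 dpa. The summed signal of the 6 fibre markers also differed at 19 dpa, with 35344 to 39698 for JKC 725 and 30823 to 36990 for JKC 703, against 70658 to 85186 for JKC 777, 69504 to 83280 for JKC 783 and 72039 to 83221 for JKC 737. The part of these cells in the members' differences was not tested.

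Which day of one genotype matched which day of another was described by the median absolute difference over the 149 members. JKC 725 and JKC 703 were closest to each other on the same day at each of the 5 fibre days, at 0.23 at 6 dpa and 0.53 at 19 dpa. JKC 725 at 6 dpa was closest to JKC 777, JKC 783 and JKC 737 at 12 dpa, at 0.39, 0.52 and 0.38, against 1.10, 1.40 and 1.39 on the same day. Over all ranked probe sets its closest days were 12, 9 and 9 dpa, at 0.26, 0.29 and 0.29, against 0.38, 0.49 and 0.46 on the same day. JKC 777, JKC 783 and JKC 737 at 19 dpa were each closest to JKC 725 at 9 dpa, at 0.49, 0.41 and 0.50, against 2.45, 2.35 and 2.43 on the same day. The ranked probe sets had this match too, with 9 dpa at 0.34, 0.32 and 0.33, against 0.61, 0.56 and 0.55 on the same day. For JKC 725 at 25 dpa the nearest day of these 3 was 6 dpa over the members, at 1.44 to 1.64. Over the ranked probe sets it was 25 dpa for JKC 777 and JKC 783 and 19 dpa for JKC 737, at 0.51, 0.60 and 0.61. These distances are over the members, which are not independent replicates, and carry no test. The score also set the members lower on the average at 6 and 25 dpa than at 9 and 12 dpa. Day matches over the members, above all that of 25 with 6 dpa, may thus be partly built in.

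Most secondary wall probe sets outside the set had the opposite order at 19 dpa. The list held 10 probe sets of CelA1, CTL1, FLA6, FLA7, nst3 and susC, none of them members, and 9 were called by limma for the 12 to 19 dpa step among genotypes. At 19 dpa 8 of the 10 were higher on the mean in JKC 725 and JKC 703 than in each of the other 3. Of the cellulose synthase gene CelA1, Ghi.1151.1.A1_at was at log2 levels of 13.66 and 13.58 in JKC 725 and JKC 703, against 6.48, 8.80 and 6.87 for JKC 777, JKC 783 and JKC 737. The other CelA1 probe set had the members' order, at 10.20 and 9.37 against 12.69, 12.94 and 13.14. The probe set of susC did not separate the genotypes in this way. In the elongation list, which holds expansin, xyloglucan endotransglucosylase, pectate lyase and fatty acid elongation genes, 16 of 21 tested probe sets were called for this step, both EXPA3D members among them. At 19 dpa 17 of the 21 were lower on the mean in JKC 725 and JKC 703 than in each of the other 3, and 2, both of KCS38, were higher. The full order of the step, lower in JKC 725 and JKC 703 and higher in the others, was that of 6 of the 21. KCS12 and KCS38 encode 3-ketoacyl-CoA synthases of very long chain fatty acids. KCS12 was at log2 levels of 10.46 and 8.81 for JKC 725 and JKC 703 at 19 dpa, and at 13.4 in each of the other 3. The KCS38 probe sets, all called for this step, were divided. Ghi.9531.1.S1_s_at had the order of KCS12, at 11.25 and 10.33 against 14.06, 14.00 and 14.05 for JKC 777, JKC 783 and JKC 737. Ghi.9938.1.S1_x_at had it too, at 8.76 and 6.87 against 13.81, 13.73 and 13.82. The dimmer GhiAffx.2173.1.A1_a_at had the opposite order, at 6.55 and 6.60 against 5.34, 5.52 and 5.35.

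The step from 9 to 12 dpa, the inside of the average peak, was small. Averaged over genotypes, limma called 2 members as higher at 12 dpa, 1.34%, where 1.26% of all tested probe sets were called, and 0 as lower, where 1.19% were. The members' share was that of the background. Ghi.5889.1.A1_x_at rose by 1.40 ± 0.19 (SE, n = 15 arrays a day, limma adjusted p = 1.89e-08). At 9 dpa its signal was 8627, 6661 and 9411 for JKC 725 and 1346, 2562 and 3296 for JKC 737, and at 12 dpa 7813, 17101 and 6857 and 6688, 8071 and 8605. The groups did not overlap between these days in JKC 737. At 6 dpa JKC 725 and JKC 703 already had log2 levels of 11.92 and 12.65, against 6.65, 5.25 and 6.96 for JKC 777, JKC 783 and JKC 737. GhiAffx.4130.1.S1_at rose by 1.21 ± 0.33 (SE, n = 15 arrays a day, limma adjusted p = 0.00254), and this rested on JKC 703, where the signal went from 33.6, 110 and 178 to 1030, 1114 and 2175. Without JKC 703 it was 0.54 (adjusted p = 0.33), and without replicate 3 of JKC 783 at 12 dpa it was 0.998, under the minimum.

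The small average hid different steps. From 9 to 12 dpa JKC 725 had 100 members with a lower mean and JKC 703 75, whereas JKC 777 had 12, JKC 783 15 and JKC 737 18. Limma's F test called 53 members as differing among genotypes in this step, 35.6%, where 11.2% of all tested probe sets were called. Both days are days of the score, so the members' larger share may partly follow from their choice. Without replicate 2 of JKC 725 at 12 dpa 61 were called. The median range was 1.26 for the members and 0.78 for all tested probe sets.

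Peak height, the average level of 9 and 12 dpa less that of 6 and 25 dpa, differed among genotypes in 100 members, 67.1%, by limma's F test, where 19.7% of all tested probe sets were called. The days are those of the score, so the members' larger share may partly follow from their choice. The median range was 1.58 for the members and 0.73 for all tested. The largest was that of LOC107938356 (range 6.51, adjusted p = 3.25e-08). It was followed by Ghi.4013.2.S1_at (range 5.71, adjusted p = 3.5e-10) and Ghi.4013.1.A1_at (range 5.41, adjusted p = 4.84e-09), which share a transcript cluster. The signal of Ghi.4013.2.S1_at at 9 dpa was 1969, 982 and 2118 for JKC 725 and 219, 521 and 186 for JKC 703, against 26.6, 19.3 and 13.0 for JKC 777, 13.4, 10.9 and 6.95 for JKC 783 and 8.30, 11.8 and 15.1 for JKC 737. At 19 dpa the order was reversed, with 6.94, 16.1 and 26.5 for JKC 725 and 805, 1437 and 1171 for JKC 777. At the other end, GhiAffx.21560.1.A1_a_at had a range of 0.33 (limma adjusted p = 0.809), Ghi.850.1.S1_at of 0.34 (limma adjusted p = 0.892) and GhiAffx.28227.1.S1_s_at of 0.53 (limma adjusted p = 0.198). All 3 were still called for the 12 to 19 dpa step, with ranges of 2.58, 2.12 and 2.98. Ghi.850.1.S1_at was at 1260, 976 and 1433 at 9 dpa and 67.7, 73.2 and 156 at 19 dpa in JKC 725, and at 846, 523 and 378 and 1591, 1118 and 1206 on these days in JKC 777.

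The 11 members highest at 9 or 12 dpa in every genotype came nearest to the label of the set. Beside UGD2, LOC107946138 and LOC107907037 they were Ghi.9249.4.A1_at, GhiAffx.22436.1.S1_at, Ghi.10212.1.S1_x_at, Ghi.6626.1.S1_at, Ghi.6649.1.A1_at, Ghi.9125.1.S1_s_at, Ghi.8686.2.A1_s_at and Ghi.6899.1.A1_at. These unnamed members were picked out after their values had been seen. Ghi.10212.1.S1_x_at and Ghi.6626.1.S1_at were highest at 12 dpa in all 5 genotypes. From 12 to 19 dpa Ghi.6626.1.S1_at differed by -1.64 for JKC 725, -1.45 for JKC 703, -0.84 for JKC 777, -1.39 for JKC 783 and -0.74 for JKC 737. In Ghi.10212.1.S1_x_at these differences were -1.06, -0.56, -0.77, -1.69 and -0.82 in the same order.

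Fibre at 19 dpa was set against the ovule at 0 dpa, on days that the score did not use. Either day could still meet the level needed for ranking, and the tested probe sets include some too low to be ranked. Averaged over genotypes, limma called 99 members as higher at 19 dpa, 66.4%, where 18.3% of all tested probe sets were called, and 9 as lower, 6.04%, where 25.9% were. The median difference was 1.98 for the members and -0.15 for all tested probe sets. This average was uneven over the genotypes. The members' median log2 level went from 7.79 to 8.25 for JKC 725 and from 7.46 to 7.87 for JKC 703. For JKC 777, JKC 783 and JKC 737 it went from 7.34, 7.24 and 7.08 to 10.46, 10.53 and 10.39. Of the named genes, pox was higher by 5.08 ± 0.15, Aux2 by 2.71 ± 0.14 and EXPA3D (Ghi.249.1.A1_at) by 2.58 ± 0.18 (SE, limma adjusted p = 1.44e-41, 1.33e-27 and 2.33e-21). For EXPA3D this average hid opposite directions. Its log2 level went from 6.74 to 6.48 for JKC 725 and from 6.98 to 5.60 for JKC 703. It rose from 6.78, 7.05 and 6.64 to 11.01, 12.22 and 11.78 for JKC 777, JKC 783 and JKC 737. With each array centred on its median, which moved the median of all tested probe sets to 0.39, 122 members were called as higher, where 31% of all tested probe sets were, and 5 as lower, where 14.7% were. In the ovule 18 members, 12.1%, were below a signal of 40.4 in every genotype, against 1.53% of the ranked probe sets. The largest differences were those of Ghi.5889.1.A1_x_at (8.15 ± 0.19, SE, limma adjusted p = 5.67e-47), GhiAffx.22653.1.S1_s_at (7.82 ± 0.20, SE, limma adjusted p = 1.55e-44) and Ghi.1198.1.S1_at (7.28 ± 0.16, SE, limma adjusted p = 7.8e-48). Ovule signals of Ghi.1198.1.S1_at lay between 0.741 and 21.0 over the 15 arrays. Its signal at 6 dpa was 3971, 5472 and 5971 for JKC 725 and 735, 919 and 2433 for JKC 783. Since the ovule values lie below the filter, the size of these differences rests on the 4.4 added before the log.

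Among the members lower at 19 dpa than in the ovule were Ghi.4013.2.S1_at (-2.05 ± 0.28, SE, limma adjusted p = 6.53e-10), Ghi.4013.1.A1_at (-1.71 ± 0.28, SE, limma adjusted p = 1.15e-07) and the second EXPA3D probe set, GhiAffx.40054.1.S1_at (-1.84 ± 0.21, SE, limma adjusted p = 2.04e-12). The last rested on JKC 725 and JKC 703, being -0.77 without the former and -0.54 without the latter. In JKC 783 this probe set was at 784, 546 and 498 in the ovule and at 2737, 4104 and 3829 at 19 dpa, so the genotypes went opposite ways. Over all arrays at 19 dpa, Ghi.4013.2.S1_at ran from 3.85 to 1751 and Ghi.4013.1.A1_at from 3.49 to 985. Their ovule signals were 335 to 2601 and 240 to 2309. The ranges overlapped, so their average fall was not that of every array either.

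The brightest members were GhiAffx.2461.1.A1_s_at, Ghi.6385.1.S1_s_at and LOC107928594. GhiAffx.2461.1.A1_s_at was at 1040, 1041 and 844 in the ovule of JKC 725, 11892, 27407 and 11801 at 12 dpa, and 3107, 1957 and 886 at 25 dpa. In JKC 737 it was at 13427, 13460 and 12273 at 12 dpa and 26926, 18896 and 18048 at 25 dpa. At 25 dpa it was thus near its highest level in JKC 737, whereas in JKC 725 it had a log2 level of 10.78, against 9.93 in the ovule and 13.94 at 12 dpa. Its 12 to 19 dpa step ranged over 2.36 among genotypes (limma's F test, adjusted p = 8.86e-10).

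The superior and inferior classes were compared by limma on the 5 genotype means, 2 against 3. No member and no other probe set was called for the mean of 9 and 12 dpa, for the peak height or for the mean of the fibre days, so 0% of all tested were called in either direction. At an unadjusted p under 0.05 there were 2, 1 and 4 members and 213, 269 and 133 probe sets. Both superior genotypes lay above all 3 inferior ones in 7, 2 and 8 members and below them in 7, 8 and 4. The share of members so separated was 9.4%, 6.71% and 8.05%, against 11.2%, 10.3% and 8.34% of all tested probe sets.

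At the limit of the score the values were close. The last members were Ghi.6899.1.A1_at at 0.5273 and Ghi.5012.1.A1_at at 0.5253, and the first probe sets outside were Ghi.7080.1.S1_at at 0.5248 and Ghi.9263.1.A1_a_at at 0.5223. The kinds of probe set were shared out as in the ranked probe sets: 46.3% ended in s_at and 6.71% in x_at, against 46.1% and 7.75% of the ranked probe sets.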

How the data were processed

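RNA of 89 samples was hybridised to 1-colour Affymetrix arrays. The authors deposited 1 MAS5 intensity per probe set and array on a linear scale, made with MAS5 per the submitters' processing notes (version not given in the sources used here). The 2% trimmed mean of each array was 499.9, so the arrays had been scaled to a common mean, and median signals lay between 59.9 and 119.8. The number of arrays limits the precision.

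Intensities plus 4.4 were converted to log2. Control probe sets (AFFX) were left out, and probe sets whose group means all stayed below the 40th percentile of the table (signal 40.4) were not tested, which kept 18660 of 24029 and all 149 members. The 30 group means were estimated by limma 3.58.1 (R 4.3.3) with an intensity trend and Benjamini-Hochberg adjustment over all tested probe sets. A call needs an adjusted p under 0.05 and a change, or a range over genotypes, of at least 1 (no minimum for the interaction and the classes). These p-values measure the spread between replicate arrays, and SEs hold no spread between genotypes. The code was tested on simulated data.

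The members and gene lists were chosen with earlier results of these data known. Tests were limited to contrasts that the score did not use: 9 against 12 dpa, 19 against 0 dpa and differences among genotypes. The score used averages over genotypes. Peak height, the 9 to 12 and 12 to 19 dpa steps, the interaction and most single-day tests still rest on days of the score. The members' larger shares there may partly follow from their choice. The 12 to 19 dpa tests were added after the values had been seen. Named are all members with 1 gene and, by probe set, the 10 with the highest score, the 3 brightest, the 3 called with the largest change in each test and direction, the 3 with the smallest range of peak height and those at the limit. Gene names come from a probe table (697 probe sets with 1 gene, 46 with several, 23389 with none) and RefSeq synonyms of assembly Gossypium_hirsutum_v2.1. Members' shares beside the background are descriptions.

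Same-numbered replicates of different groups did not deviate together (1276 pairs, median correlation -0.001), so the numbers were not taken as pairing the samples. Alternatives covered the offset, the normalization, the filter, the variance prior, a replicate block, and leaving out each array or genotype.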

Additional observations from a re-analysis of the deposited data

Results flagged for a closer look

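The results below differed between genotypes by a test of the difference itself, limma's F test among the 5 genotypes. They were 100 members for peak height (19.7% of all tested probe sets were called), 53 for the 9 to 12 dpa step (11.2%), 129 for the 12 to 19 dpa step (42.5%) and 142 for the interaction of genotype and fibre day, for which 79.5% of all tested probe sets were called.

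Among members with a gene name, the called ranges of the 12 to 19 dpa step were 9.15 for LOC107938356 (GhiAffx.53241.1.S1_at), 8.12 and 5.78 for the EXPA3D probe sets Ghi.249.1.A1_at and GhiAffx.40054.1.S1_at, 5.67 for pox (Ghi.8136.1.S1_s_at), 4.33 for LOC107938326 (GhiAffx.1112.1.S1_s_at) and 4.27 for FLA14 (Ghi.9544.4.S1_s_at). Smaller ranges were 3.15 for LOC107913997 (Ghi.2837.1.S1_s_at), 2.06 for LOC107928594 (Ghi.6324.1.A1_x_at), 1.90 for UGD2 (Ghi.8627.1.S1_s_at), 1.70 for Aux2 (GhiAffx.34525.1.S1_s_at) and 1.5 for MFP (GhiAffx.43326.1.S1_a_at). The 3 largest ranges of peak height were 6.51 for GhiAffx.53241.1.S1_at, 5.71 for Ghi.4013.2.S1_at and 5.41 for Ghi.4013.1.A1_at.

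No group held 4 or more samples, so single arrays were not examined as outliers within a group.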

How the results depend on the processing

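Signs were followed for the members named by rule, in their called 9 to 12 dpa and 19 against 0 dpa changes. None of these turned its sign under the alternatives run. The other members were followed only as counts, and a range over genotypes has no sign to turn. Median centring turned the balance of all tested probe sets between 19 and 0 dpa. The count of members higher at 12 than at 9 dpa was the least steady: it was 2 as reported, 4 with an offset of 1, 8 with median centring, and 9, 7, 4 and 6 without JKC 725, JKC 703, JKC 783 and JKC 737, and 2 to 6 when 1 array was left out. Of all probe sets, 236 were higher and 222 lower at 12 dpa. An offset of 32 gave 129 and 112, and without JKC 703 143 were lower. Median centring gave 5 members lower at 19 than at 0 dpa in place of 9. Of all tested probe sets, 3417 were higher and 4837 lower as reported, and 5782 and 2739 with this centring. Genotypes at 0 dpa differed in 5341 probe sets, in 3553 with an offset of 32 and in 2829 with the stricter filter (60th percentile). For the 12 to 19 dpa step, JKC 783 against JKC 737 had 4 members, 2 with quantile normalization and 2 to 8 with 1 array left out. JKC 777 against JKC 737 had 4, 2 with median centring and 2 to 6 with 1 array left out. JKC 725 against JKC 703 had 31, and 17 to 42 with 1 array left out. In the class tests 0 probe sets were called, and with 1 array left out 0 to 1 for the mean of 9 and 12 dpa and 0 to 2 for the fibre days. Applied without JKC 725 or JKC 703, the rule kept 97 or 96 of the 149 members. Without JKC 777, JKC 783 or JKC 737 it kept 107, 106 or 105. The cause of these shifts was not tested.

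With the replicate block, 129 members were called for the 12 to 19 dpa step, 53 for the 9 to 12 dpa step, 101 for peak height and 142 for the interaction. It moved no count by over 1.5 times. Of single members, the 19 against 0 dpa differences of UGD2 (0.79 to 0.99), FLA14 (0.63 to 0.79), LOC107928594, LOC107946138 and GhiAffx.4130.1.S1_at fell under the minimum or the threshold in some alternatives, UGD2's and FLA14's without JKC 777, JKC 783 or JKC 737. The peak height of UGD2 was 0.96 and that of MFP 0.93 with an offset of 32. Peak height came past the threshold in some fits without 1 array for GhiAffx.22653.1.S1_s_at, Ghi.2837.1.S1_s_at and GhiAffx.4130.1.S1_at.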
